A study of Homo sapiens with 12 samples.

Results

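The MAP kinase phosphatases described here are 8 genes, DUSP1, DUSP2, DUSP4, DUSP5, DUSP6, DUSP8, DUSP10 and DUSP16, taken by gene symbol from a table of raw counts for 20771 genes. RNA had been sequenced from EW8-RRM1-KO and from TC71-RRM1-KO, a pair of Ewing sarcoma lines (a bone and soft tissue cancer of young people) in which CRISPR/Cas9 had disrupted the endogenous RRM1 gene. Each line is a single-cell clone, and all 4 groups carry a codon-optimised RRM1 transgene that is switched on by doxycycline, so that the cells live on it. The groups were EW8 at 0 h, EW8 at 48 h, TC71 at 0 h and TC71 at 48 h, with 3 replicate libraries each (12 in all). The labels give the line and the time, and by the study's methods and legends 0 h stands for culture with doxycycline and 48 h for 48 h without it. RRM1 is the catalytic subunit of ribonucleotide reductase, which makes the deoxyribonucleotides used in DNA replication.

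MAP kinase phosphatases remove the phosphates from both the threonine and the tyrosine of the activation loop of a MAP kinase and so switch it off. Many of their genes are themselves induced by MAP kinase signalling, which makes them part of a negative feedback loop, and their transcripts are often used as a readout of pathway activity. They are grouped by place and substrate. DUSP1 (MKP-1), DUSP2 (PAC-1), DUSP4 (MKP-2) and DUSP5 are inducible nuclear enzymes, of which DUSP5 acts on ERK alone. DUSP6 (MKP-3) is cytoplasmic and specific for ERK. DUSP8, DUSP10 (MKP-5) and DUSP16 (MKP-7) act mainly on the stress-activated kinases JNK and p38.

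Libraries held 18468485 to 35698991 counts. Counts from RRM1 were higher, not lower, in the libraries labelled 48 h (166 to 317 against 1201 to 1514 in EW8, and 316 to 422 against 674 to 778 in TC71), and the codon-optimised transgene differs in sequence from the gene counted, so this row is no check of the loss of the protein and the times below are those of the labels. All 7 Ewing sarcoma markers were in the table, with a summed level of 1033 to 1247 CPM per library, that is counts scaled to library size. Of 6 blood cell markers 3 were in the table, with a sum of 0.107 to 0.839 CPM. Of 6 fibroblast markers 5 were in the table, and their sum was 159 to 165 CPM in EW8 at 0 h, 253 to 260.5 at 48 h, 142 to 145 in TC71 at 0 h and 214 to 228 at 48 h. Of 5 epithelial markers 3 were in the table, with sums of 6.40 to 8.78, 21.4 to 23.4, 72.1 to 74.3 and 103 to 117 CPM in the same order of groups. The blood cell, fibroblast and epithelial sums were higher at 48 h in both lines, and their part in the results was not tested. In RNA from a whole culture, a change in how many cells express a gene and a change in RNA per cell cannot be told apart. The labels do not say whether replicates were separate cultures, so p-values measure the spread between these libraries, which may be technical.

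The stretch around the transcription start is shown for DUSP8, which had the largest fold change of the 8 but few counts at 0 h, for DUSP6, which had the largest among the phosphatases past the filter cutoff in every library, and for DUSP1, which shares a motif with DUSP8. Each runs from 250 bases before to 50 bases after the start in RefSeq (GRCh38.p14), on the − strand, for DUSP1 at chr5:172771146-172771445, DUSP8 at chr11:1572222-1572521 and DUSP6 at chr12:89352452-89352751. Capitals mark TGACGTCA, the palindromic cAMP response element that CREB and ATF proteins are known to bind.
DUSP1: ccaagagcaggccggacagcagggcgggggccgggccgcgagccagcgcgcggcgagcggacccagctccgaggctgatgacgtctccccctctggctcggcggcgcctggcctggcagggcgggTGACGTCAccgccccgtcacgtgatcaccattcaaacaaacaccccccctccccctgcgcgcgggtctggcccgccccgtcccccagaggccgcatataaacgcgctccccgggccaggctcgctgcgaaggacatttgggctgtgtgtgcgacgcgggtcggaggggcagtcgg
DUSP8: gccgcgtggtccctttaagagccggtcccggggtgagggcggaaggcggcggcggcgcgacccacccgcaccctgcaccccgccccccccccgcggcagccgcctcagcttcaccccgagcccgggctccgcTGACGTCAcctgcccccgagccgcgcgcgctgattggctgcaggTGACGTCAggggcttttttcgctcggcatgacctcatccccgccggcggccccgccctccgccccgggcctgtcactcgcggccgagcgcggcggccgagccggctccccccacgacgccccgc
DUSP6: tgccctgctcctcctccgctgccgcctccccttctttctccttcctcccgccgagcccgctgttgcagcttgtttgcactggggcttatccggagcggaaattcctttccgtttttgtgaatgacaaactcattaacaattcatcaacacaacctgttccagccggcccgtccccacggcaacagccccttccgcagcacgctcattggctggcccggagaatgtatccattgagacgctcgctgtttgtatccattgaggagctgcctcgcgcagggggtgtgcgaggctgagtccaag
The letters TGACGTCA occur at -125 from the start in DUSP1 and at -118 and -74 in DUSP8 (first base of the motif). Of all 35116 RefSeq promoters of this length, 1.85% hold them. They were not found in the windows of DUSP2, DUSP6, DUSP10 and DUSP16. RefSeq promoters were matched for 6 of the 8 genes, DUSP10 with 2 starts. DUSP1 has TATAAA at -30, which 11.5% of all promoters hold. GGGCGG, the GC box, was found in the windows of DUSP1, DUSP2, DUSP8, DUSP10 and DUSP16 and in 45.0% of all promoters. The DUSP6 window held none of the motifs searched, which on both strands were TGACTCA (in 4.95% of all promoters), TGACGTCA, TGACG (24.6%, and part of TGACGTCA), CCGGAAGT (4.14%), GGAAGGAA (3.67%), the GC box, the TATAAA letters and the CArG box (1.29%). A match is a description of the letters, and nothing is read from a missing one.

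After 48 h without doxycycline all 8 phosphatase transcripts were called higher in EW8 and 5 of 8 in TC71. A call needed more than a 2-fold change and, by edgeR's quasi-likelihood test, an adjusted p under 0.05 (Benjamini-Hochberg over the 16515 genes that passed a filter on low counts). Of all genes tested, 13.9% were called higher in EW8 and 3.26% in TC71, against 3.35% and 0.854% called lower. The median log2 fold change of the 8 was 2.61 in EW8 and 1.52 in TC71, beside 0.03 and 0.00 over all genes tested. All 8 passed the filter on low counts. DUSP10 passed through the EW8 48 h group alone, DUSP8 through the 2 groups at 48 h and DUSP4 through the 2 EW8 groups. DUSP10 and DUSP8 had to differ between the times in those groups, and their part in the counts and medians is a description. For DUSP4 this holds for the comparison of the lines, not for that of the times in EW8. All libraries at 48 h lay above all at 0 h for 8 of 8 genes in EW8 (37.9% of all genes tested) and for 7 of 8 in TC71 (25.9%), with DUSP4 the exception.

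**Figure D1:**
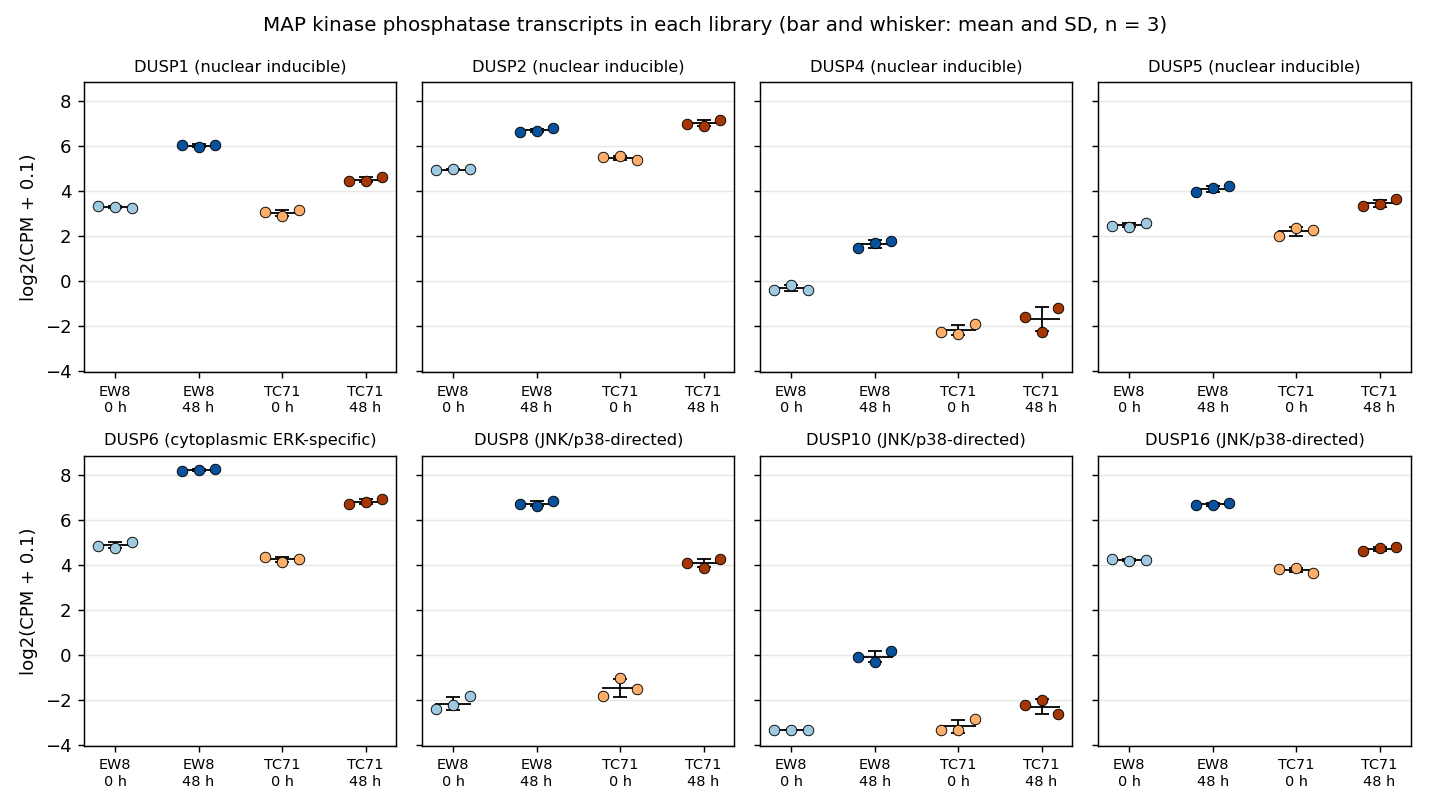
Level of each phosphatase transcript in each of the 12 libraries, as log2(CPM + 0.1) on the vertical axis with the 4 groups along the horizontal axis. Points are libraries, and the bar and whisker are the mean and SD (n = 3). DUSP8 shows the widest gap between 0 h and 48 h in both lines, and DUSP4 in TC71 is the 1 case in which the 0 h and 48 h libraries overlap.

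DUSP1, which acts on JNK, p38 and ERK in the nucleus, stood at 9.99, 9.91 and 9.49 CPM in EW8 at 0 h and at 67.6, 62.8 and 66.7 at 48 h. In TC71 it stood at 8.27, 7.45 and 8.94 CPM at 0 h and at 22.0, 22.3 and 24.8 at 48 h. The lines started close together and ended far apart. DUSP1 rose 6.73-fold in EW8 (log2 2.75 ± 0.07 SE, edgeR adjusted p = 7.98e-27) and 2.80-fold in TC71 (log2 1.48 ± 0.08 SE, edgeR adjusted p = 4.79e-17). It lies on chromosome 5 from 172768096 to 172771195 (hg38, − strand, 4 exons, gene ENSG00000120129).

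DUSP2, best known from activated T and B cells and directed at ERK and p38, was the phosphatase with the highest level per length in both lines at 0 h. It stood at 30.4, 31.7 and 31.7 CPM in EW8 at 0 h and at 101, 103 and 111 at 48 h. The TC71 libraries held 46.0, 47.0 and 42.1 CPM at 0 h and 129.6, 120.5 and 144 at 48 h, above EW8 at both times. DUSP2 rose 3.36-fold in EW8 (log2 1.75 ± 0.06 SE, edgeR adjusted p = 2.75e-22) and 2.92-fold in TC71 (log2 1.55 ± 0.06 SE, edgeR adjusted p = 1.93e-20). Of the 3 blood cell markers in the table, PTPRC, the pan-leukocyte marker, reached at most 0.203 CPM and CD14 at most 0.189 in any library. ITGAM was at 0 to 0.041 CPM in EW8 at 0 h and at 0.401 to 0.642 at 48 h. In TC71 ITGAM was at 0.189 to 0.252 CPM and at 0.403 to 0.509.

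DUSP5, the nuclear phosphatase that anchors and inactivates ERK, was at 5.39, 5.33 and 6.01 CPM in EW8 at 0 h and at 15.7, 17.6 and 18.8 at 48 h. In TC71 it was at 3.95, 5.15 and 4.80 CPM at 0 h and at 10.0, 10.7 and 12.5 at 48 h. No 48 h library reached down to a 0 h library. The rise was 3.09-fold in EW8 (log2 1.63 ± 0.11 SE, edgeR adjusted p = 1.48e-15) and 2.42-fold in TC71 (log2 1.27 ± 0.12 SE, edgeR adjusted p = 2.99e-11), the smallest of the 4 nuclear genes in EW8.

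DUSP4, a nuclear relative of DUSP1, was scarce. Its raw counts were 15, 14 and 22 in EW8 at 0 h, 51, 63 and 70 at 48 h, then 3, 2 and 4 in TC71 at 0 h and 6, 3 and 11 at 48 h. It rose 4.42-fold in EW8 (log2 2.14 ± 0.25 SE, edgeR adjusted p = 3.15e-10). In TC71 the groups overlapped, and a change was not detectable at this depth (log2 0.87, 95% interval -0.30 to 2.03, edgeR adjusted p = 0.201).

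DUSP6, the cytoplasmic ERK phosphatase, held 29.0, 27.4 and 33.0 CPM in EW8 at 0 h and 290.4, 296 and 308 at 48 h. In TC71 it held 20.4, 17.6 and 19.3 CPM at 0 h and 106, 112 and 123 at 48 h. Its fitted fold change was above those of the 4 nuclear genes in both lines, with 9.90-fold in EW8 (log2 3.31 ± 0.06 SE, edgeR adjusted p = 1.55e-26) and 5.95-fold in TC71 (log2 2.57 ± 0.07 SE, edgeR adjusted p = 5.78e-22). By fold change it was 219th from the top among 16515 genes in EW8 and 63rd in TC71. An annotated gene on the opposite strand, ENSG00000274021, overlaps its exons (chromosome 12, 89347235 to 89352501) and has no row in the table. The kit keeps strand, but the counting tool and its strand setting are not given in the sources used here.

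DUSP8, a phosphatase of JNK and p38 otherwise known from brain, heart and muscle, went from near 0 to a level per length above that of DUSP16 in EW8. Its raw counts were 2, 2 and 6 in EW8 at 0 h and 1992, 1958 and 2368 at 48 h. They were 5, 8 and 6 in TC71 at 0 h and 446, 396 and 622 at 48 h. As summed counts scaled to library size this is 780-fold in EW8 (95% counting interval 424 to 1627) and 64.5-fold in TC71 (41.1 to 107). The fit gave log2 9.55 ± 0.51 SE and 5.98 ± 0.38 SE, with which DUSP8 ranked 2nd of 16515 genes by fold change in EW8 and 3rd in TC71. Since DUSP8 passed the filter through the groups at 48 h alone, these values are a description. Counting intervals here cover counting error only, since reads are not independent molecules.

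DUSP16, the JNK phosphatase that shuttles between nucleus and cytoplasm, was at 19.3, 18.3 and 18.8 CPM in EW8 at 0 h and at 102, 102 and 110.2 at 48 h. TC71 libraries had 14.0, 14.4 and 12.7 CPM at 0 h and 24.5, 26.8 and 27.9 at 48 h. It rose 5.57-fold in EW8 (log2 2.48 ± 0.06 SE, edgeR adjusted p = 2.46e-27). In TC71 it was 1.93-fold higher at 48 h with no overlap (log2 0.95 ± 0.07 SE, edgeR adjusted p = 2.32e-13), just under the fold threshold, which it passed with total counts as the scaling (log2 1.0003) or without TC71 48 h replicate 1 (log2 1.0002).

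DUSP10, which acts on JNK and p38 in both compartments, had no count in the 3 EW8 libraries at 0 h and 16, 14 and 21 counts at 48 h. TC71 had 0, 0 and 1 before removal of doxycycline and 3, 4 and 2 counts after it. The level in EW8 was at least 21.0-fold higher at 48 h, taking 3 counts over the 0 h group as the floor, a description for the reason given above. In TC71 9 counts against 1 gave a ratio of 7.53 (95% counting interval 1.04 to 330.1) and an edgeR adjusted p of 0.0533. That p ran from 0.0330 to 0.191 over the alternatives, and fell below 0.05 with total counts as the scaling (0.0491), without TC71 0 h replicate 3 (0.0330) and without TC71 48 h replicate 3 (0.0454).

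**Figure D2:**
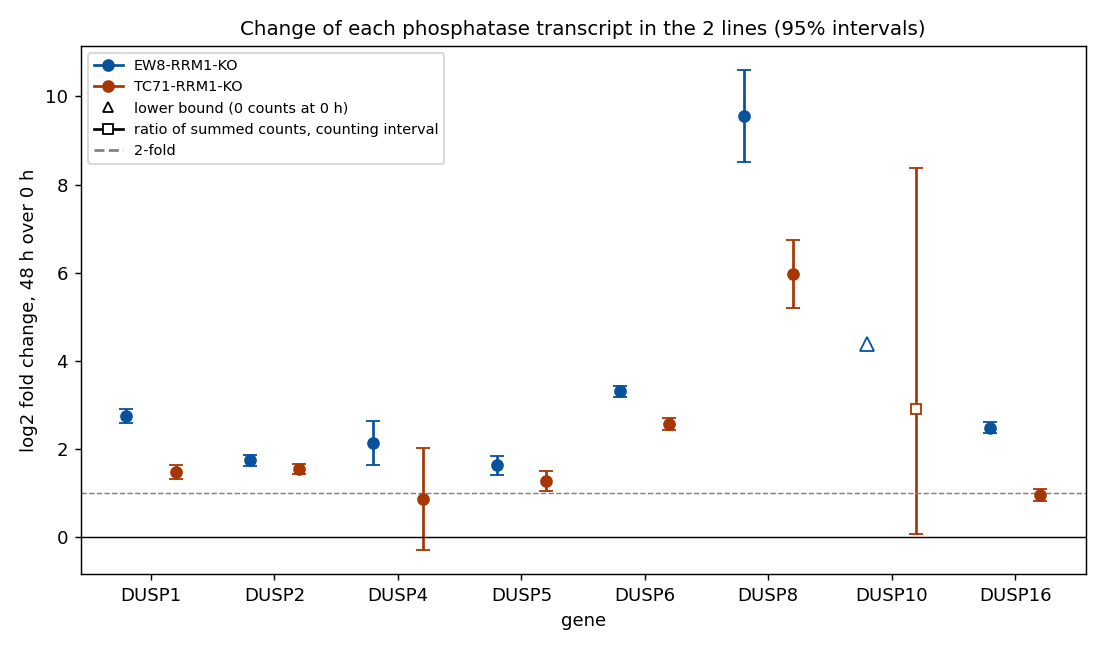
Change of each gene between 0 h and 48 h, as a log2 fold change, in EW8-RRM1-KO (blue) and TC71-RRM1-KO (orange). Filled points are edgeR estimates with 95% intervals, the open triangle is the lower bound for DUSP10 in EW8 (at least 21.0-fold), the open square is the ratio of summed DUSP10 counts in TC71 with its counting interval, and the dashed line is 2-fold. The blue point lies above the orange one for every gene.

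The rise was larger in EW8 than in TC71 for 3 of 8 genes by the test of the difference itself (7.28% of all genes tested were called with a larger change in EW8). These were DUSP8 (difference of the log2 fold changes 3.58 ± 0.64 SE, edgeR adjusted p = 2.06e-05), DUSP16 (1.53 ± 0.09 SE, edgeR adjusted p = 3.27e-15) and DUSP1 (1.27 ± 0.11 SE, edgeR adjusted p = 1.39e-11). DUSP8 passed the filter through the groups at 48 h alone, so its part in this count is a description. At 0 h it had 10 summed counts in EW8 and 19 in TC71 (EW8 over TC71 log2 -0.93, edgeR adjusted p = 0.172). For DUSP6 the difference of 0.73 had an edgeR adjusted p of 1.33e-07 but stayed under 2-fold. For DUSP2 it was 0.20 (95% interval 0.03 to 0.37, edgeR adjusted p = 0.0444, with 0.00600 to 0.150 over the alternatives). The differences for DUSP5 (0.36, 95% interval 0.03 to 0.68, edgeR adjusted p = 0.0622, with 0.0188 to 0.183 over the alternatives) and DUSP4 (1.28, 95% interval 0.01 to 2.54, edgeR adjusted p = 0.110) did not pass. The DUSP5 p went below 0.05 with total counts as the scaling (0.0246), with the replicate number as a block (0.0314) and without EW8 48 h replicate 1 (0.0320), TC71 0 h replicate 1 (0.0242) or TC71 48 h replicate 3 (0.0188), each time under 2-fold. The DUSP4 difference passed without TC71 48 h replicate 3 (log2 1.72, edgeR adjusted p = 0.0470, with 0.0470 to 0.329 over the alternatives). For DUSP10 the fitted difference rests on the 0 counts in EW8 and the 1 count in TC71 at 0 h, and it was not called (edgeR adjusted p = 0.0907, with 0.0725 to 0.9998 over the alternatives, the highest without TC71 0 h replicate 3). Over the 8 genes, DUSP10 included, the median difference was 1.27, beside 0.04 over all genes tested.

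Before doxycycline was removed the lines differed by less than 2-fold in the well-counted phosphatases. At 0 h, 1 of 8 genes, DUSP4, was called higher in EW8 (4.77% of all genes tested), at log2 2.42 ± 0.52 SE. At 48 h, 6 of 8 were called higher in EW8 (10.5% of all genes tested), namely DUSP4 (log2 3.70), DUSP8 (2.64), DUSP16 (1.99), DUSP1 (1.51), DUSP6 (1.39) and DUSP10 (51 counts in EW8 against 9 in TC71). DUSP10 and DUSP4 passed the filter through EW8 alone, so their calls here and at 0 h are descriptions. The edgeR adjusted p was at most 3.49e-19 for the 4 others. DUSP2 went the other way, with log2 -0.52 at 0 h and -0.32 at 48 h (EW8 over TC71, edgeR adjusted p = 1.03e-08 and 3.08e-06, both under 2-fold). With 1 clone per line, these are differences between the clones.

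Levels were compared between genes as RPKM, here CPM per kilobase of the canonical GENCODE 44 transcript. In EW8 at 0 h the order was DUSP2 (18.6 ± 0.432 RPKM, SD, n = 3), DUSP6 (8.22 ± 0.801), DUSP1 (4.87 ± 0.134), DUSP16 (2.82 ± 0.0782), DUSP5 (2.25 ± 0.152), DUSP4 (0.128 ± 0.0144), DUSP8 (0.0266 ± 0.0102) and DUSP10 (0). At 48 h DUSP6 led EW8 with 82.2 ± 2.43 RPKM, followed by DUSP2 (62.4 ± 3.18), DUSP1 (32.6 ± 1.26), DUSP8 (22.1 ± 1.84), DUSP16 (15.7 ± 0.710), DUSP5 (7.02 ± 0.631), DUSP4 (0.558 ± 0.0650) and DUSP10 (0.332 ± 0.0630). No neighbours in either EW8 order overlapped between libraries. DUSP8 thus moved from 7th to 4th place in EW8.

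In TC71 DUSP2 led at both times. The 0 h order was DUSP2 (26.7 ± 1.52 RPKM), DUSP6 (5.26 ± 0.385), DUSP1 (4.08 ± 0.369), DUSP16 (2.06 ± 0.136), DUSP5 (1.87 ± 0.249), DUSP8 (0.0571 ± 0.0219), DUSP4 (0.0225 ± 0.00642) and DUSP10 (0.00533 ± 0.00923). At 48 h it was DUSP2 (77.9 ± 6.97 RPKM), DUSP6 (31.4 ± 2.38), DUSP1 (11.4 ± 0.764), DUSP5 (4.46 ± 0.514), DUSP16 (3.96 ± 0.261), DUSP8 (3.53 ± 0.463), DUSP10 (0.0419 ± 0.0170) and DUSP4 (0.0409 ± 0.0206). DUSP16 and DUSP5 overlapped between libraries at both times, as did DUSP16 and DUSP8 and DUSP10 and DUSP4 at 48 h, so their order is not settled.

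Set side by side by class, the make-up of the 8 transcripts moved away from the nuclear enzymes in both lines. The summed level was 36.9 ± 1.01 RPKM in EW8 at 0 h, 223 ± 8.87 at 48 h, 40.1 ± 1.20 in TC71 at 0 h and 133 ± 10.7 at 48 h (SD, n = 3). The nuclear inducible genes held 70.0% ± 1.53 of that sum in EW8 at 0 h and 46.0% ± 0.0737 at 48 h, and in TC71 81.6% ± 0.902 and 70.7% ± 1.03. DUSP6 held 22.3% ± 1.59 and 36.9% ± 0.601 in EW8, and 13.1% ± 1.07 and 23.7% ± 0.989 in TC71. The share of the JNK/p38-directed genes went from 7.72% ± 0.290 to 17.1% ± 0.536 in EW8, and from 5.28% ± 0.202 to 5.67% ± 0.0393 in TC71. No library at 48 h overlapped the 0 h libraries of its line in any of the 3 shares. These shares are a description, with no test.

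**Figure D3:**
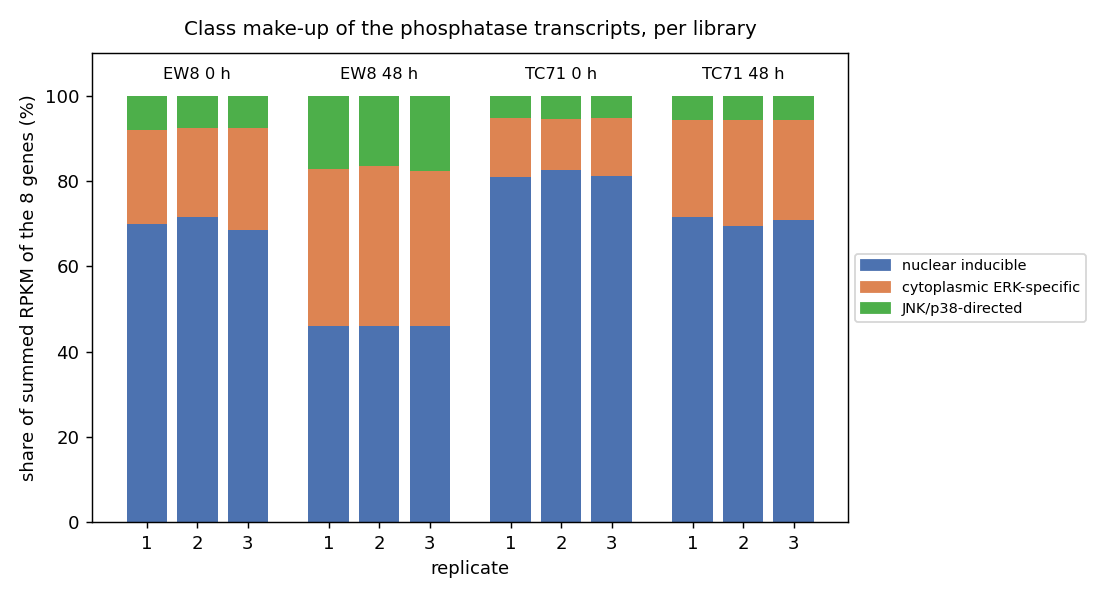
Share of each phosphatase class in the summed RPKM of the 8 genes, in percent, for each of the 12 libraries (1 bar a library, grouped by line and time). The nuclear inducible share is 68.6 to 71.6% in EW8 at 0 h and 45.9 to 46.1% at 48 h.

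Within the classes the genes moved by different amounts. DUSP2 went from 50.4% to 28.0% of the summed level in EW8 and from 66.6% to 58.7% in TC71, although its own level rose. DUSP1 went from 13.2% to 14.6% in EW8 and from 10.2% to 8.62% in TC71, and DUSP5 from 6.10% to 3.15% and from 4.67% to 3.35%. DUSP8 went from 0.0717% to 9.91% in EW8 and from 0.142% to 2.65% in TC71. DUSP16, in the same class, held 7.65% and 7.05% in EW8 and 5.13% and 2.99% in TC71, so in EW8 the class gained share through DUSP8, while in TC71 the gain of DUSP8 was nearly offset by DUSP16.

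Ratios of counts within a library need no scaling between libraries, and 4 were tested with a two-sided exact permutation test that exchanged times within each line (400 arrangements, smallest possible p 0.005). The log2 ratio of DUSP1 to DUSP6 fell by 0.84 over both lines (exact permutation p = 0.005, adjusted over the 4 ratios 0.01), with -0.58 in EW8 and -1.09 in TC71. That of DUSP5 to DUSP6, the nuclear against the cytoplasmic ERK phosphatase, fell by 1.51 (exact permutation p = 0.005, adjusted 0.01), with -1.69 in EW8 and -1.32 in TC71. All 6 libraries at 48 h lay below all 0 h libraries of their line in both ratios. Within 1 line the exact permutation test cannot go below p = 0.1, which each line reached. With signs flipped within same-numbered pairs instead, the adjusted exact permutation p was 0.0625 for each of these ratios.

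**Figure D4:**
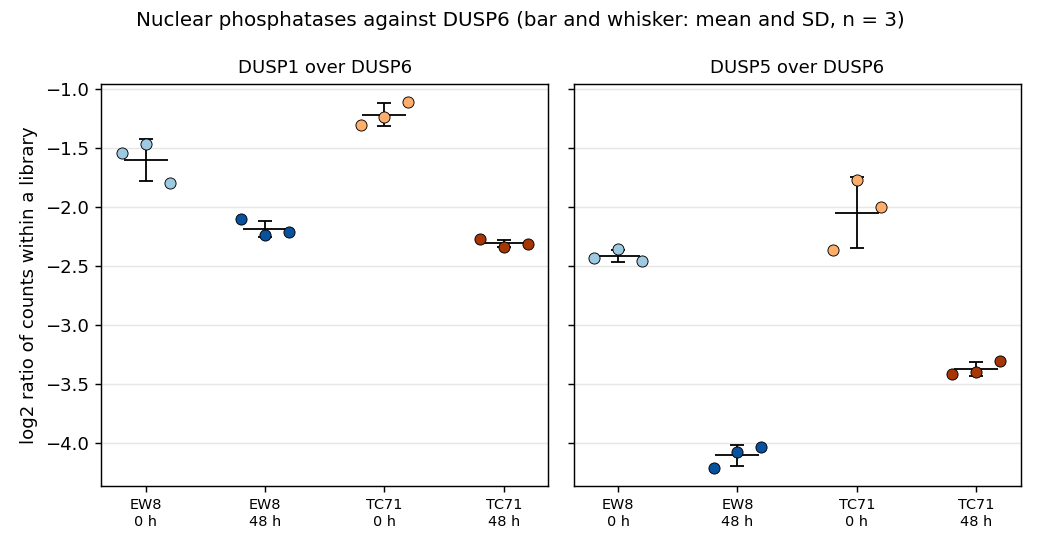
Log2 ratio of DUSP1 counts (left) and DUSP5 counts (right) to DUSP6 counts within each library, for the 4 groups, with mean and SD (n = 3). DUSP5 over DUSP6 lies at -2.41 in EW8 at 0 h and -4.10 at 48 h, and at -2.04 and -3.37 in TC71.

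The other 2 ratios involve DUSP10, whose counts at 0 h were 0 or 1, so their size rests on the 0.5 added to each count and their values are a description. DUSP10 over DUSP16 was higher by log2 1.96 at 48 h and ran from 1.18 to 3.86 over the alternatives. DUSP1 over DUSP10 stood at log2 -1.56 between the times, and ran from -3.45 with 0.1 added to -0.78 with 1 added.

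The other cytoplasmic ERK phosphatases with rows in the table were DUSP7 and DUSP9. DUSP7, a close relative of DUSP6, stood at 53.0, 55.7 and 55.0 CPM in EW8 at 0 h and at 36.6, 34.3 and 33.7 at 48 h. That is log2 -0.65 ± 0.06 SE (edgeR adjusted p = 8.08e-12), under 2-fold and with no overlap. In TC71 the difference was log2 -0.11 (edgeR adjusted p = 0.140). DUSP9 had 1 to 3 counts in EW8 at 0 h and 5 to 8 at 48 h, a 3.53-fold ratio (95% counting interval 1.43 to 9.87, edgeR adjusted p = 0.00684). In TC71 its ratio was 1.92 (1.06 to 3.62, edgeR adjusted p = 0.0660). TC71 at 48 h was the 1 group that carried DUSP9 past the filter, so its TC71 values are a description. No EW8 library reached the filter cutoff, so its call in EW8, counted among the pathway genes below, rests on few counts.

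Rows with similar sequence were followed too. DUSP8P5, a DUSP8 pseudogene, had 13, 20 and 17 counts in EW8 at 0 h and 11, 15 and 16 at 48 h (log2 0.04, edgeR adjusted p = 0.920), with overlap between the groups. DUSP5P1, a DUSP5 pseudogene, went the opposite way from DUSP5, with log2 -1.03 in EW8 (edgeR adjusted p = 0.00156) and -0.77 in TC71 (edgeR adjusted p = 0.00164). How the counting treated reads that match several places is not given in the sources used here, so the split between DUSP5 and DUSP5P1 is uncertain.

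The wider MAP kinase pathway was read from lists of its other genes. Over 9 lists of 96 other pathway genes, 83 were tested, of which 15 were called higher in EW8 and 3 in TC71 and none lower by edgeR in either line. That is 18.1% and 3.61% of those tested, near the shares of all genes called higher. At an adjusted p below 0.05 without the fold threshold, 44 were higher and 23 lower in EW8, and 24 and 14 in TC71. Of all genes tested, 37.0% were higher and 31.6% lower by that criterion in EW8, and 22.9% and 19.2% in TC71, so passing it was common (68.6% and 42.1% in either direction). The 13 MAP kinases tested had a median log2 of -0.29 in EW8 and -0.07 in TC71. At an adjusted p below 0.05 without the fold threshold, 9 of them were lower and 3 higher in EW8, and 2 lower and 1 higher in TC71, to be read against those shares of all genes. MAPK3, the gene of ERK1, stood at log2 -0.48 in EW8 (edgeR adjusted p = 1.45e-08) and at 0.01 in TC71. MAPK14, the gene of p38 alpha, was at -0.20 in EW8 and -0.03 in TC71, and MAPK8, that of JNK1, at -0.29 and -0.11.

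MAPK10, the neuronal JNK3, and MAPK15 (ERK8) were the 2 MAP kinases called in EW8, at log2 1.42 and 1.56. Neither was called in TC71. None of 7 MAP kinase kinases was called by edgeR in either line, with 4 at an adjusted p below 0.05 in each line. Of 22 MAP3 kinases, MAP3K14 (the NF-kB-inducing kinase) and BRAF were called in EW8, at log2 1.75 and 1.03. Of 6 scaffolds, MAPK8IP1 and MAPK8IP2, which hold JNK modules together, were called in EW8 at log2 2.75 and 1.22. Of 10 MAP kinase-activated kinases none was called by edgeR, with 7 at an adjusted p below 0.05 in EW8 and 5 in TC71. Of 11 atypical dual-specificity phosphatases, STYXL1, a pseudophosphatase, was called in EW8 at log2 1.74. Of 4 other phosphatases of MAP kinases, PTPN7, a tyrosine phosphatase of ERK and p38, was called in both lines at log2 2.35 and 1.07.

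Of 8 genes known to follow ERK activity, 6 were called higher in EW8 (median log2 1.58) and 2 in TC71 (0.67), where 13.9% and 3.26% of all genes were. The 6 include ETV4, which passed the filter through EW8 at 48 h alone and so had to differ, and its part in this count, in the median and in the 15 above is a description. SPRY4, a feedback inhibitor of receptor signalling, rose by log2 3.50 ± 0.08 SE in EW8 and 3.95 ± 0.24 in TC71. SPRY2 rose by 1.72 ± 0.10 and 1.01 ± 0.10. EPHA2, an ephrin receptor, and ETV5, an ETS factor, were called in EW8 at log2 1.99 and 1.65 and were at 0.65 and 0.68 in TC71. The edgeR adjusted p of these 4 genes ranged up to 6.86e-17 in EW8. CCND1, cyclin D1, was at 0.11 and 0.18. EPHA4, another ephrin receptor, was at log2 0.89 in EW8 and -0.38 in TC71 (edgeR adjusted p = 1.79e-10 and 0.00485, both under 2-fold), and ETV4, an ETS factor of few counts, at 1.51 and -1.85.

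**Figure D5:**
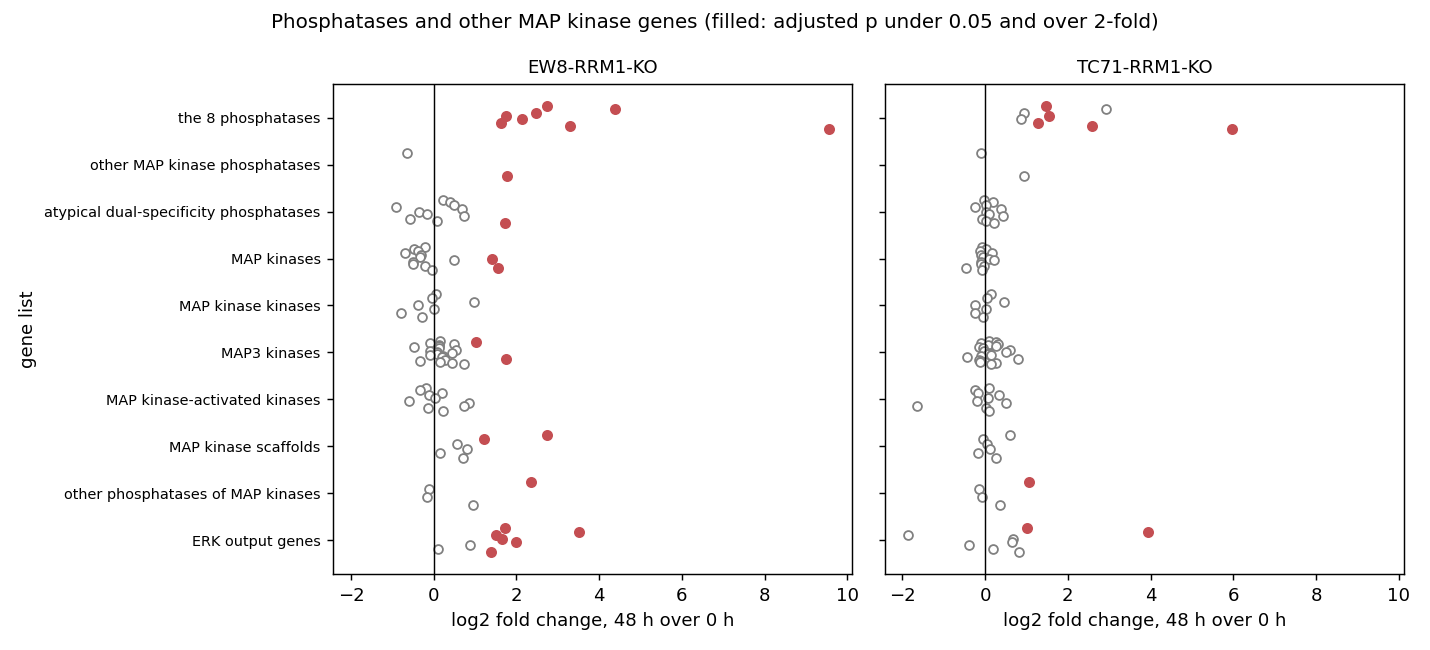
Log2 fold change between 0 h and 48 h of each tested gene of the MAP kinase lists, with the 8 phosphatases in the top line, in EW8-RRM1-KO (left) and TC71-RRM1-KO (right). Filled points passed both thresholds of the call, DUSP10 is drawn at its bound in EW8 and at its count ratio in TC71, and most of the kinases lie near 0.

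The genes whose levels ran most like each phosphatase were found by Pearson's r of log2 CPM over the 12 libraries, among 13509 genes with a mean of at least 1 CPM. These r are a description, since 2 lines and 2 times set most of the spread. For DUSP1 they were LIPH (r = 0.997), GPR174 and TNFRSF12A. DUSP2 ran with GDF15 (r = 0.993), PDCD1 and IQCC, and DUSP4 with ALAS1 (r = 0.992), TFE3 and CDC42BPB. The genes for DUSP5 were LINC01116 (r = 0.992), INTS7 and PLAU, and for DUSP6 ADAMTS4 (r = 0.995), DTL and ATF3. DUSP8 ran with ERFE (r = 0.997), IER2 and TWIST1, DUSP10 with PCBP1-AS1 (r = 0.991), NXF1 and SUPT7L, and DUSP16 with SERPINE2 (r = 0.998), PAX3 and RPRD1B. No gene was in more than 1 of these 8 sets of 3. Their own changes were of very different size, from log2 8.74 in EW8 for GDF15, a stress cytokine, to 0.27 for CDC42BPB.

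DUSP8 lies on chromosome 11 from 1554051 to 1572271 (hg38, − strand, 7 exons), and the rows within 200 kb of its start were read as well, chosen after its own values were seen. KRTAP5-1, a hair keratin-associated protein gene 13.0 kb upstream, had no count in any of the 6 libraries at 0 h. At 48 h it had 14, 17 and 11 counts in EW8 and 6, 2 and 8 in TC71. It passed the filter through EW8 at 48 h alone, so this is a description. KRTAP5-AS1, on the opposite strand from 1571353 to 1599184, spans the DUSP8 start without overlapping its exons. It also had no count at 0 h, and 8, 2 and 5 in EW8 and 2, 1 and 4 in TC71 at 48 h, too few to be tested. The other 3 rows too low to be tested did not show this pattern. IFITM10 had 2, 2 and 3 counts in EW8 at 0 h and 1, 0 and 2 at 48 h, PRADX 8, 2 and 8 and then 0, 2 and 4, and ENSG00000229512 1 to 4 counts in every library. BRSK2, a neuronal kinase 182 kb away, was at log2 1.42 in EW8 and 1.70 in TC71, from 2 to 8 counts per library at 0 h, and passed the filter through the groups at 48 h alone. MOB2, between BRSK2 and DUSP8, was at log2 0.68 and 0.24 and CTSD, 192 kb upstream, at -0.11 and 0.13, and neither was called.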

How the data were processed

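RNA isolated with the RNeasy Plus kit had been made into stranded polyA libraries (TruSeq) and sequenced by the authors on a NovaSeq. Per the submitters' processing notes, reads were checked with FastQC and mapped to hg38 with STAR. The counting tool and its annotation are not given in the sources used here. The authors deposited raw counts, 1 column a library, as whole numbers with no normalization and a smallest gene sum of 21 over the 12 libraries. The authors' own tests used DESeq2.

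The test was that of edgeR 4.0.16 (R 4.3.3). It used filterByExpr (at least 10 counts, total at least 15, with 16515 genes left), TMM, and a robust quasi-likelihood fit of the 4 groups together without a replicate block. CPM are TMM-scaled. Counting intervals are 95% (conditional binomial), and the floor for 0 is 3 counts over a group. RPKM lengths and coordinates came from GENCODE 44, which held 19943 of 20771 identifiers. DESeq2 1.42.0 served as an alternative, and scipy 1.17.1 in Python 3.11.15 for permutations. Other alternatives were the scaling, the filter, the fold threshold, the block, the samples in the fit and each library left out. Replicates differed by more than sampling noise (chi-square per gene 2.05 to 9.48). The largest values, 7.83 and 9.48, were those of TC71 48 h replicate 3 against replicates 1 and 2 of its group. Mitochondrial genes held 2.68% of its counts, against 3.97% and 3.99% in replicates 1 and 2. Named genes were the 8 members, DUSP7, DUSP9, RRM1, up to 4 called genes per pathway list and line, and the 3 genes most like each member. MAPK3, MAPK8, MAPK14, CCND1, EPHA4, ETV4, the pseudogenes and the neighbours of DUSP8 were added after their values were seen. Members and lists were chosen with earlier results of these data known. Protein sequences were not analysed here, and some genes of the lists are not reported here.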

Additional observations from a re-analysis of the deposited data

Results flagged for a closer look

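The changes between 0 h and 48 h differed between EW8 and TC71 for 5 of the 8 phosphatases by the edgeR test of the difference at an adjusted p below 0.05, with no fold threshold. By that criterion 48.1% of all genes tested differed, and 25.7% with the larger value in EW8. The differences of the log2 fold changes (EW8 minus TC71) were 1.27 for DUSP1, 0.20 for DUSP2, 0.73 for DUSP6, 3.58 for DUSP8 and 1.53 for DUSP16. In each of these genes both lines had higher levels at 48 h and EW8 the larger change. The DUSP2 difference had an edgeR adjusted p of 0.0444, with 0.00600 to 0.150 over the alternatives. DUSP8 passed the filter through the groups at 48 h alone, so its part in the 5 is a description.

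Of the 83 other pathway genes tested, 8 (9.64%) differed between the lines by the same test and by more than 2-fold, with the larger value in EW8, as did 7.28% of all genes tested. The differences were 1.52 for STYXL1, 1.33 for MAPK10, 2.02 for MAPK15, 2.15 for MAPK8IP1, 1.26 for MAPK8IP2, 1.29 for PTPN7, 1.34 for EPHA2 and 1.27 for EPHA4. MAPK15 (log2 1.56 in EW8 and -0.46 in TC71) and EPHA4 (0.89 and -0.38) had opposite signs at an adjusted p below 0.05 in both lines. At 0 h several of these genes were lower in EW8 than in TC71, with 5.33 CPM against 37.2 for MAPK8IP1, 0.552 against 6.66 for MAPK15 and 7.70 against 21.8 for PTPN7.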

How the results depend on the processing

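No result changed sign under the alternatives run. DUSP10 between the lines at 0 h, with 0 counts against 1, has no direction without TC71 0 h replicate 3, which holds that count. The number of the 8 phosphatases called was the same with DESeq2's size factors, upper-quartile factors, the DESeq2 Wald test, no filter and the replicate block (8 in EW8, 5 in TC71, 3 for the difference, 1 at 0 h and 6 at 48 h). With total counts alone it was 7 in TC71, as DUSP10 and DUSP16 passed, where 603 of 16515 genes tested were called higher. That scaling moved the median log2 of all genes to 0.16 in EW8, from 0.03. With at least 10 counts in every library, 5 of the genes were left, of which 5 were called in EW8, 4 in TC71, 2 for the difference, 0 between the lines at 0 h (0 lower and 0 higher, by edgeR) and 3 at 48 h, because fewer genes were tested. Of all 13210 genes tested at that setting, 1204 were called higher in EW8, 197 in TC71 and 634 for the difference. Between the lines, 389 were called higher and 979 lower in EW8 at 0 h, and 921 and 1045 at 48 h. Without the fold threshold 8 were called in EW8 (68.6% of all genes tested, in either direction), 6 in TC71 (42.1%) and 5 for the difference (48.1%). Between the lines it was 6 at 0 h (5 higher in EW8 and 1 lower, against 65.7% of all genes) and 8 at 48 h (7 higher and 1 lower, against 72.7%).

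The replicate numbers did not pair the libraries, since deviations of same-numbered libraries correlated at -0.138 to 0.106. With signs flipped within same-numbered pairs as a replicate block, each of the 4 ratios had an adjusted exact permutation p of 0.0625 at unchanged values (-0.84 for DUSP1 over DUSP6, -1.51 for DUSP5 over DUSP6, 1.96 for DUSP10 over DUSP16 and -1.56 for DUSP1 over DUSP10), in a design whose smallest unadjusted p is 0.0313. DUSP1 over DUSP10 was -0.78 with a pseudocount of 1 and -3.45 with 0.1.

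With DUSP5 counted as ERK-specific, the nuclear share was 63.9% in EW8 at 0 h, 42.9% at 48 h, 76.9% in TC71 at 0 h and 67.3% at 48 h. Without the fold threshold 67 of the 83 pathway genes tested were called in EW8 and 38 in TC71, beside 68.6% and 42.1% of all genes tested. With each library left out in turn, 8 genes were called in EW8, 5 to 6 in TC71, 3 to 4 for the difference, 1 at 0 h and 6 at 48 h. The ratios then ran from -0.89 to -0.80, -1.59 to -1.44, 1.77 to 2.25 and -1.78 to -1.38. Depth limits DUSP4 and DUSP10, which had at most 20 counts summed over a TC71 group.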
